A study of Mus musculus with 12 samples.

Results

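The deposited arrays of mouse embryonic stem (ES) cells included 6 from cells kept for 4 days without leukaemia inhibitory factor (LIF): 3 from cells deleted for Hdac1 and 1 copy of Hdac2, and 3 from wild type cells. These 6 of the 12 arrays were chosen by their titles, and all detected genes are described. The cells were E14, a male ES cell line of strain 129/Ola, grown on gelatin without feeder cells in medium with fetal calf serum. The wild type samples bore the label Day 0, and the deleted samples the label Day 4 with the genotype HDAC1-/-; HDAC2-/wt. Deletion used CreER, a recombinase that enters the nucleus when 4-hydroxytamoxifen (OHT, here 1 uM for 16 h) binds its hormone receptor domain. The OHT label stood on the wild type samples too. Genotype and day divided the samples in the same way and cannot be told apart. The labels name 1 cell line and leave unsaid whether a group's arrays were grown apart. The p-values therefore measure only the spread between these samples, which may be technical.

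HDAC1 and HDAC2 are class I histone deacetylases. They remove acetyl groups from histone tails within the Sin3, NuRD, CoREST and MiDAC complexes, and they are known both as corepressors and as enzymes needed for normal transcription of pluripotency genes. LIF acts through its receptor, the JAK kinases and the transcription factor STAT3 to keep mouse ES cells undifferentiated; without it the cells begin to differentiate, a process in which FGF, Nodal, Wnt, BMP and Notch signals take part.

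The culture of these arrays rests on 1 of 2 conflicting namings. Values came from the table keyed by sample. The column names of the non-normalized table gave the same genotype for 12 of 12 columns, the same culture for 0 and the same replicate number for 0. Each of its columns had the rank order of a single column of the table keyed by sample (Spearman's rho of 1 with its match and at most 0.836 with any other). Under that other naming the 6 arrays described here would be the arrays with LIF.

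Between 15137 and 17690 of 45281 probes were detected on the 6 arrays (33.4% to 39.1%). Log2 values correlated with a Pearson r of 0.9753 to 0.994 within the 2 groups and 0.9549 to 0.979 between them. All 12 ES cell markers listed were detected on all 6 arrays. Of 7 neural markers on the array none was detected, Sox1 and Pax6 included. Of 8 endoderm markers Gata6 and Hnf4a were detected in at least 1 group, and Gata4, Sox7 and Sox17 were not. Of 11 fibroblast markers 4 were detected (Col1a1, Thy1, Pdgfra and Pdgfrb), 1 of them on all 6 arrays, while Col1a2, Col3a1, Dcn and Lum were not. Those with no detection on all arrays of any group were read as background.

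The deletion itself was followed only in part. No probe named Hdac1 was tested. Hdac2, on chromosome 10, had a log2 intensity of 11.03, 11.23 and 11.26 in wild type and 10.85, 11.10 and 11.18 in deleted cells, a difference of -0.13 ± 0.12 (SE) with an adjusted p of 0.517. The groups overlapped. Where this probe lies with respect to the deleted exons was not analysed here, so these values check nothing about the deletion. Of 16 histone deacetylases and sirtuins tested, 2 rose and none fell. They were Sirt7, a nucleolar sirtuin (0.60 ± 0.13, adjusted p = 0.01), and Sirt2, a cytoplasmic sirtuin (0.33 ± 0.09, adjusted p = 0.0347). Sirt7 passed whichever array was left out and Sirt2 in 0 of the 6 such fits. Under median scaling 0 of the 16 rose. At the same threshold (limma, adjusted p under 0.05) 5.92% of all genes tested rose and 4.57% fell. Hdac3, the class I deacetylase of another corepressor complex, differed by 0.12 ± 0.10 (adjusted p = 0.464). With replicate number as a block, Hdac8 (-0.33) and Sirt1 (-0.50) passed as well.

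Without LIF, 999 of 9527 genes (10.5%) differed between deleted and wild type cells at an adjusted p under 0.05 (limma, Benjamini-Hochberg over all genes): 564 were higher in deleted cells (5.92%) and 435 lower (4.57%). Most differences were small. Of the 999 genes, 544 changed by less than 1.5-fold and 68 by at least 2-fold, of which 52 were higher and 16 lower. The median log2 fold change of all genes was 0.0028, and the median standard error 0.134. All values are of RNA from whole cultures, in which fewer cells of a type and less RNA per cell cannot be told apart. Groups of 3 arrays did not overlap for 2809 genes (29.5%). At an unadjusted p under 0.05, 2512 genes differed. Genes that fell had a higher median wild type log2 intensity (8.67) than all genes tested (7.85) or those that rose (7.98). The wild type level is itself a term of the fold change that selected them, and dim genes have little room to fall. The medians are therefore a description only. Of the risen genes with a chromosome, 3.55% lay on the X chromosome, against 3.45% of the fallen and 3.35% of all tested.

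**Figure D1:**
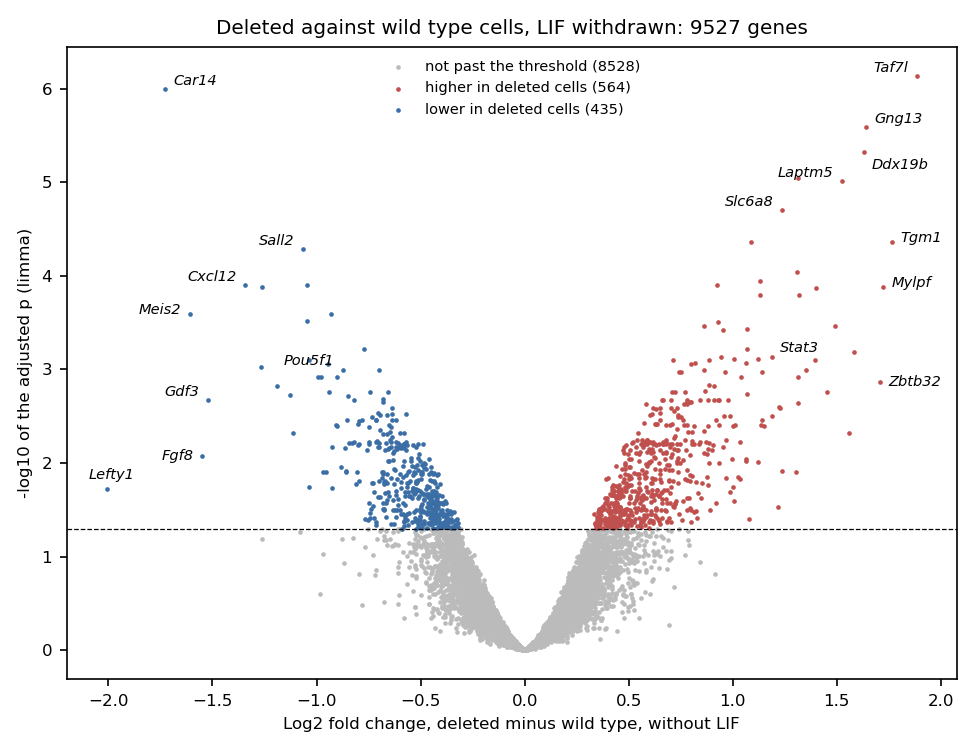
Log2 fold change of each of the 9527 genes (deleted minus wild type, without LIF) against the -log10 of its adjusted p. Grey points are genes not past the threshold of 0.05 (dashed line), and 564 genes lie above it on the higher side and 435 on the lower side, with Taf7l farthest up on the right and Car14 on the left.

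The count depended on single arrays and on pairing. It fell to 442 without wild type array 2, to 400 without wild type array 3 and to 491 without deleted array 3. With replicate number as a block it was 2084, among which were all 999. The share of higher calls was 56.5%. When the non-normalized intensities were scaled by their medians 257 genes passed, 91.1% of them higher, so that few falls passed; counts under this median scaling are given for the main lists. Same-numbered arrays of the 2 groups deviated together from their group means, with correlations of 0.681, 0.513 and 0.268 for arrays 1, 2 and 3, though wild type array 3 also correlated at 0.409 with deleted array 2. A gene is said below to have risen or fallen only where it passed without the block. For gene lists, the count with the block is given where it differed by more than 1.5 times in either direction of change. The lists are described by counts and medians, to be read against 5.92% higher, 4.57% lower and the median of 0.0028 over all genes. Errors after ± are moderated standard errors of a log2 fold change (n = 3 arrays per group), and levels are log2 intensities of arrays 1, 2 and 3 in that order.

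The gene that rose most was Taf7l, an X-linked relative of the TFIID subunit gene Taf7 that is expressed in male germ cells. It read 7.52, 7.34 and 7.27 in wild type and 9.32, 9.24 and 9.22 in deleted cells. The deleted arrays lay close together and well above the wild type. The change was 1.88 ± 0.11, or 3.69-fold (adjusted p = 7.29e-07). Taf9b, also on the X chromosome and a relative of Taf9, read 7.44, 7.14 and 7.07 in wild type and 8.81, 8.50 and 8.54 in deleted cells, with no overlap (1.40 ± 0.15, adjusted p = 0.000134). A dimmer second Taf9b probe gave 0.54 and did not pass. Of 12 genes of TFIID tested, 3 rose and none fell (2 fell with the block). The other was Taf13, at 0.44 ± 0.13 (adjusted p = 0.0483), which passed in none of the 6 fits that left out 1 array. Taf9 itself was at 0.07, Tbp at -0.14 and Taf5 at -0.39, none of which passed.

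Of 31 germline and meiosis genes tested, 5 rose and none fell (median 0.21; 9 rose with the block and 3 under median scaling). Beside Taf7l these were Tex19.2 (0.99 ± 0.17, adjusted p = 0.00317), its near copy Tex19.1 (0.62 ± 0.18, 0.042), the meiotic cohesin gene Stag3 (0.60 ± 0.17, 0.0402) and Tex101, a surface protein of germ cells (0.39 ± 0.12, 0.0441). The 2 Tex19 genes are close paralogs, and cross-hybridisation between them was not tested. Taf7l and Tex19.2 passed whichever array was left out; Tex19.1 and Tex101 passed in 1 of 6 such fits and Stag3 in 2. Dazl (-0.02) and Ddx4 (0.13), RNA-binding proteins of germ cells, did not pass.

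The promoters of Taf7l, Taf9b and Stag3 are shown because these genes rose and each holds the palindrome CACGTG, the E-box bound by MYC, MAX and MGA proteins. The sequences are the 250 bases before the RefSeq start in build GRCm38.p6, written along the strand of the gene, with the motif in capitals. They come from chrX:134476491-134476740 (minus strand) for Taf7l, chrX:106221159-106221408 (minus strand) for 1 of the 2 starts of Taf9b, and chr5:138280259-138280508 (plus strand) for Stag3.
Taf7l: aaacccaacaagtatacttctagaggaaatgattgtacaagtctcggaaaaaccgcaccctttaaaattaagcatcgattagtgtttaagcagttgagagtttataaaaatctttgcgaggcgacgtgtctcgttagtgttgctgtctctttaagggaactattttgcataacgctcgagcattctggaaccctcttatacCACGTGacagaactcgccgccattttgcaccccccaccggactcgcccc
Taf9b: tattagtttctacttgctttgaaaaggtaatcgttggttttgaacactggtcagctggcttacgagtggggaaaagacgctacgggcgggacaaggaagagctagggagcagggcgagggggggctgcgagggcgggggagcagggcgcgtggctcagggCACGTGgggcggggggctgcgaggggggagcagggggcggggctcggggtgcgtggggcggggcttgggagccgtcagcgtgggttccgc
Stag3: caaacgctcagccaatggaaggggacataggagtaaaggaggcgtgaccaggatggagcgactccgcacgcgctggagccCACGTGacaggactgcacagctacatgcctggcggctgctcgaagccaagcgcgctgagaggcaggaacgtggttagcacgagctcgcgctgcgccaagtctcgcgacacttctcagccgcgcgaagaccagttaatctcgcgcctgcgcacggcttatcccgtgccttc
Counted from the start, the motif's first base lay at -49 in Taf7l, -90 in Taf9b and -170 in Stag3. The motif was chosen after these sequences had been read. The promoters of Tex19.1, Tex19.2 and Tex101, which also rose, did not hold it, and that of Mov10l1, a germline gene that did not pass, did. Counting genes with a single promoter in the table, CACGTG was present in 5 of 23 germline and meiosis genes tested (21.7%), 7.02% of the genes that rose, 10.3% of those that fell and 8.58% of all genes tested. A TATAAA on either strand was present in 9.65% of the genes that rose, 11.5% of those that fell and 6.43% of all tested. The median number of CpG dinucleotides was 16 in risen, 15 in fallen and 16 in all tested promoters. These are descriptions of letters in the window, not of binding.

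Other large rises came from unlike gene families. Tgm1, the transglutaminase that cross-links the envelope of keratinocytes, read 7.63, 7.43 and 7.41 in wild type and 8.96, 9.18 and 9.63 in deleted cells (3.4-fold, 1.76 ± 0.16, adjusted p = 4.37e-05). Zbtb32, a zinc finger repressor, read 8.60, 7.72 and 7.54 in wild type and 10.14, 9.31 and 9.53 in deleted cells (1.71 ± 0.25); wild type array 1 stood above the other wild type arrays, and the groups still did not overlap. Gng13, a G protein gamma subunit known from taste cells, read 7.64, 7.59 and 7.60 in wild type and 9.14, 9.19 and 9.42 in deleted cells (1.64 ± 0.11). Arrays within each of its groups were tight. Ddx19b, a helicase of mRNA export, read 8.29, 8.09 and 8.08 in wild type and 9.83, 9.94 and 9.58 in deleted cells (1.63 ± 0.12), and a second, dimmer probe gave 0.56 without passing. Laptm5, a lysosomal membrane protein of blood cells, read 9.17, 8.78 and 8.81 in wild type and 10.57, 10.26 and 10.51 in deleted cells (2.88-fold, adjusted p = 9.8e-06). The blood cell markers Ptprc, Spi1, Csf1r, Tyrobp, Fcer1g, Lyz2, Aif1 and Cd52 were not detected; Coro1a, the 1 of 9 that was, rose by 0.70 ± 0.15 and its linear intensity was 220.5 to 281.1 on the wild type and 328 to 458.2 on the deleted arrays. Its part in the rise of Laptm5 was not tested. Further rises at or above 1.32 were those of the growth factor receptor gene Fgfr2, the myosin light chain genes Mylpf and Myl2, S100a6, the myelin protein gene Pmp22 (1.45 ± 0.22), the secreted protease gene Htra1 (1.40 ± 0.19), Gpx2 and the uncharacterised 1110008P14Rik.

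**Figure D2:**
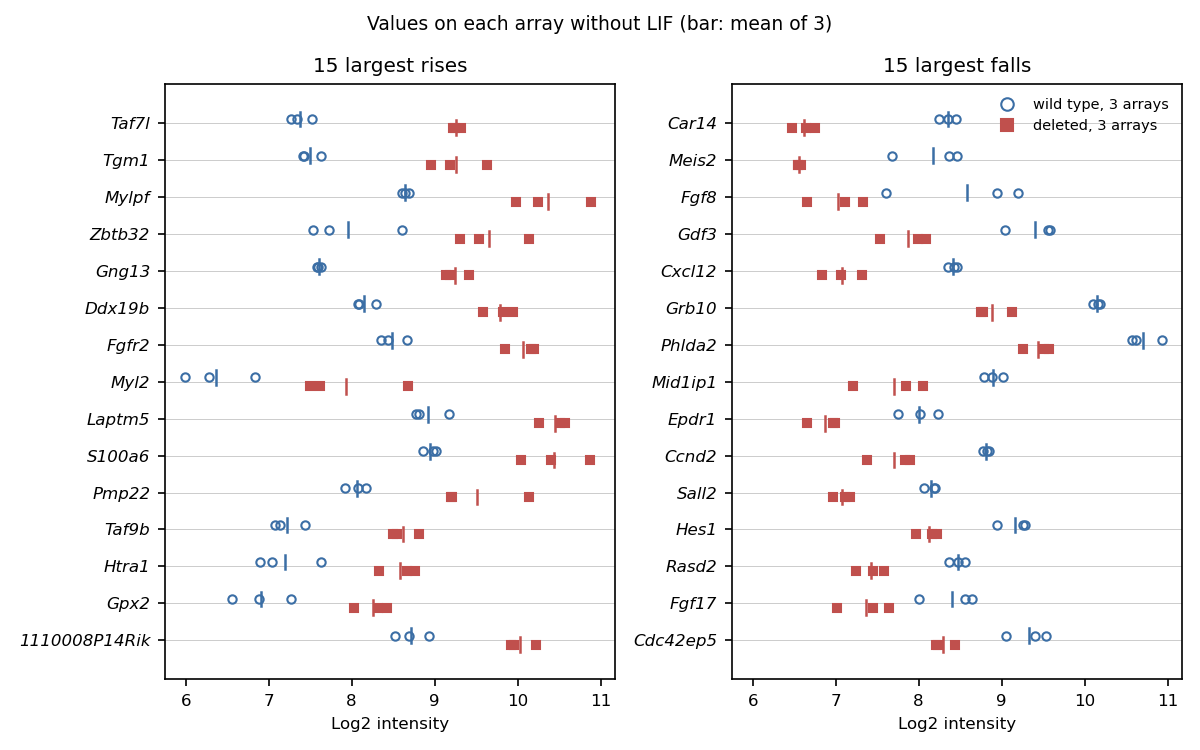
Log2 intensity on each of the 3 wild type (open circles) and 3 deleted (filled squares) arrays without LIF for the 15 largest rises (left) and falls (right) among genes whose groups did not overlap, with bars at group means. Taf7l and Gng13 show tight, well separated groups, while Fgf8 and Zbtb32 show 1 wild type array apart from the other 2.

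Of the 30 genes with the largest rises and falls without overlap, 29 passed whichever of the 6 arrays was left out. Fgf17 passed in 3 of the 6 such fits. Under median scaling each of the largest rises still passed, but the falls of Fgf8, Gdf3, Epdr1, Ccnd2, Hes1, Fgf17 and Cdc42ep5 did not. The gene that fell most among the 30 was Car14, a membrane-bound carbonic anhydrase. It read 8.35, 8.25 and 8.45 in wild type and 6.76, 6.64 and 6.47 in deleted cells (-1.73 ± 0.11, adjusted p = 1.01e-06), and it was detected on 2 of the 3 deleted arrays. Meis2, a homeodomain partner of Hox proteins, read 7.68, 8.37 and 8.46 in wild type and 6.54, 6.58 and 6.55 in deleted cells (-1.61 ± 0.19). Its deleted values lay near the detection floor, and wild type array 1 was the lowest of the wild type arrays. Cxcl12, a chemokine that guides stem cell migration, read 8.42, 8.36 and 8.46 in wild type and 7.32, 7.06 and 6.83 in deleted cells (-1.34 ± 0.14, adjusted p = 0.000125). The imprinted, maternally expressed genes Grb10, an adaptor that restrains insulin and growth factor signalling, and Phlda2, a brake on placental growth, fell by 1.27 ± 0.17 and 1.26 ± 0.13. Sall2, a zinc finger gene, read 8.20, 8.07 and 8.18 in wild type and 7.17, 6.96 and 7.11 in deleted cells (-1.07 ± 0.10). The other large falls were those of Mid1ip1, a regulator of fatty acid synthesis (-1.19 ± 0.18), Epdr1 (-1.13 ± 0.17), Rasd2, a Ras-like GTPase (-1.04 ± 0.11), and Cdc42ep5, a CDC42 effector (-1.04 ± 0.14).

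Nodal is a TGF-beta ligand that acts with the co-receptor encoded by Tdgf1 and the transcription factor FOXH1, and it induces its own inhibitors Lefty1 and Lefty2. Of 16 Nodal pathway genes tested, 3 fell and none rose (median -0.37); 7 fell with replicate number as a block and 1 under median scaling. Lefty1 read 8.49, 10.18 and 10.31 in wild type and 7.08, 8.66 and 7.22 in deleted cells, a change of -2.01 ± 0.48 or 4.02-fold lower (adjusted p = 0.0191). Wild type array 1 stood below the other wild type arrays, deleted array 2 above the other deleted arrays, and the groups overlapped. Gdf3, a ligand related to Nodal, read 9.04, 9.58 and 9.56 in wild type and 7.54, 8.09 and 7.99 in deleted cells (-1.52 ± 0.24, adjusted p = 0.00213), with no overlap. Foxh1 read 8.12, 7.90 and 8.02 in wild type and 7.70, 6.78 and 6.91 in deleted cells (-0.88 ± 0.19, adjusted p = 0.011). Under median scaling Foxh1 was the 1 that fell, and Gdf3 and Lefty1 did not pass. Gdf3 passed whichever array was left out. Lefty1 passed in 2 of 6 such fits (adjusted p up to 0.0909, without wild type array 3) and Foxh1 in 5 (0.0533 without deleted array 3).

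The remaining Nodal pathway genes did not pass without the block. Nodal itself read 9.14, 10.28 and 10.09 in wild type and 8.30, 9.33 and 9.25 in deleted cells, with a fold change of -0.88 ± 0.28 and an adjusted p of 0.0639, or 0.00334 once blocked by number. Lefty2 was at -0.58 ± 0.46 (adjusted p = 0.454, and 0.0229 with the block). Tdgf1 was at -0.61 ± 0.32 (adjusted p = 0.256). Of the signal transducers, Smad2 was at 0.06 and Smad3 at -0.38, and a second Smad3 probe passed at -0.58. The receptor gene Acvr1b was at -0.04.

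Of 13 genes of FGF and ERK signalling tested, 2 rose and 4 fell (median -0.35; 1 rose and 0 fell under median scaling). The receptor gene Fgfr2 read 8.35, 8.67 and 8.44 in wild type and 9.85, 10.16 and 10.20 in deleted cells (2.99-fold, 1.58 ± 0.20, adjusted p = 0.000653). All deleted arrays lay above all wild type arrays, and a second probe passed at 0.67. Fgf8, a ligand of the primitive streak, read 7.61, 9.19 and 8.95 in wild type and 7.11, 7.33 and 6.65 in deleted cells (-1.55 ± 0.32, adjusted p = 0.00837), with wild type array 1 again below the other 2. Its relative Fgf17 read 8.01, 8.64 and 8.56 in wild type and 7.01, 7.45 and 7.64 in deleted cells (-1.04 ± 0.25, adjusted p = 0.0182), and without wild type array 3 the adjusted p was 0.0775. Fgf15 (-0.47 ± 0.12) and Fgfbp1, a carrier that releases FGFs from matrix (-0.86 ± 0.19), fell, and Dusp4, a phosphatase that dampens ERK, rose (0.99 ± 0.24, adjusted p = 0.0203). Fgf15 passed in 3 of the 6 fits that left out 1 array, Fgfbp1 in 4 and Dusp4 in 2. Fgf4, the main FGF of ES cells (-0.35), and the ERK targets Dusp6 (0.21) and Etv4 (-0.41) did not pass.

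Among 9 immediate early genes tested 1 rose, and 4 did with the block. Fos, the partner of JUN in AP-1, read 6.67, 6.69 and 6.63 in wild type and 7.55, 7.70 and 8.12 in deleted cells (1.12 ± 0.15, adjusted p = 0.000773), and its groups did not overlap. Egr1 (0.70 ± 0.65), Dusp1 (0.91 ± 0.39) and Junb (0.48 ± 0.17) did not pass without the block and had adjusted p-values of 0.0361, 0.00341 and 0.0241 with it.

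Of 14 hedgehog and Notch genes tested, 5 fell and none rose (median -0.34; 9 fell with the block, 3 to 6 when 1 array was left out and 0 under median scaling). Hes1, the repressor that Notch signalling induces, read 8.95, 9.26 and 9.29 in wild type and 8.17, 8.22 and 7.97 in deleted cells (-1.05 ± 0.12, adjusted p = 0.0003). Each deleted array lay below each wild type array. Gli2, a transcription factor of hedgehog signalling (-0.90 ± 0.16, adjusted p = 0.00405), and Smo, its membrane transducer (-0.70 ± 0.10, 0.001), also fell. So did the receptor gene Notch3 (-0.51 ± 0.15, 0.0452) and the Notch feedback inhibitor Nrarp (-0.43 ± 0.11, 0.0212). Hes1, Gli2 and Smo passed whichever array was left out, Nrarp in 3 of 6 fits and Notch3 in 1. Notch1 (-0.13), the ligand gene Dll1 (0.21) and the hedgehog receptor gene Ptch1 (-0.32) did not pass.

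Among 25 Wnt pathway genes tested, the ligand gene Wnt7b rose (0.68 ± 0.20, adjusted p = 0.0429) and the inhibitor gene Sfrp2 fell (-0.64 ± 0.15, 0.0145); with the block 2 rose and 4 fell. Among 14 BMP and Id genes, 2 rose. Id2, an inhibitor of helix-loop-helix factors, read 7.65, 7.76 and 7.64 in wild type and 8.40, 9.18 and 8.89 in deleted cells (1.14 ± 0.16, adjusted p = 0.00107), and Bmp8b, a ligand, was at 0.77 ± 0.12 (adjusted p = 0.00233). The BMP targets Id1 (0.34) and Id3 (0.18) did not pass. Of 7 retinoic acid genes, the carrier gene Crabp2 rose (0.57 ± 0.15), and the receptor gene Rarg (-0.58 ± 0.17) and the retinol enzyme gene Rdh11 (-0.64 ± 0.13) fell. Of those, Rdh11 passed whichever array was left out, Crabp2 in 2 of 6 fits and Rarg in 1.

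Several genes of the LIF and STAT3 pathway were higher in deleted cells, both groups being without LIF in the medium. Of 21 genes tested, 4 rose and none fell (median 0.27; 9 rose and 1 fell with the block). Stat3 read 8.36, 8.38 and 8.01 in wild type and 9.60, 9.34 and 9.38 in deleted cells (2.28-fold, 1.19 ± 0.15, adjusted p = 0.000727). The groups were far apart; of 2 further probes 1 passed at 1.22 and the dimmer was at 0.35. The kinase gene Jak2 rose by 0.74 ± 0.12 (adjusted p = 0.00308). The STAT3 targets Klf5 (0.85 ± 0.20, adjusted p = 0.0162) and Tfcp2l1 (0.82 ± 0.11, 0.000846), transcription factors of naive cells, rose as well. Without deleted array 3 the adjusted p of Klf5 was 0.068. Socs3, the feedback inhibitor of STAT3, was at 0.49 ± 0.16 (adjusted p = 0.0628, and 0.032 with the block), and the receptor genes Lifr (0.08) and Il6st (-0.08) did not pass.

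Pou5f1, which encodes OCT4, read 10.85, 10.66 and 10.94 in wild type and 10.03, 10.03 and 9.76 in deleted cells (-0.87 ± 0.12, adjusted p = 0.001), and a second probe passed at -0.83. The deleted arrays were all below the wild type. The fall of Pou5f1 passed whichever array was left out, but not under median scaling. Nanog read 11.22, 11.98 and 11.89 in wild type and 10.16, 11.19 and 11.43 in deleted cells (-0.77 ± 0.26, adjusted p = 0.0781, and 0.0152 with the block); its second, dimmer probe passed at -0.95. Sox2 differed by -0.03 ± 0.18 (adjusted p = 0.939). Of 14 core pluripotency genes tested, 1 rose and 1 fell (3 fell with the block, and 0 rose and 0 fell under median scaling). The one that rose was Mybl2, a cell cycle transcription factor (0.55 ± 0.12, adjusted p = 0.00953). Of 17 naive genes, 3 rose (Klf5, Tfcp2l1 and Dppa5a) and 1 fell (2 fell with the block, and 1 rose and 0 fell under median scaling). Dppa5a, an abundant transcript of ES cells, rose by 0.42 ± 0.10, and Dppa3, a gene of early germ cells and oocytes, fell by 0.53 ± 0.15. Esrrb (0.32), Klf4 (0.23) and Zfp42 (0.13) did not pass.

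Of 14 formative and primed epiblast genes tested, 3 fell and none rose (median -0.33; 6 fell with the block and 1 under median scaling): Sall2, Fgf15 and Sox11 (-0.61 ± 0.16, adjusted p = 0.0316). Of 16 genes listed for the 2-cell-like state, 11 were on the array and 4 were detected and tested. These 4 all fell, with a median of -0.71. The others on the array were not detected on all arrays of any group. The fall therefore covers only the members bright enough in some group to be tested. Tcstv1 read 7.69, 7.40 and 7.59 in wild type and 6.57, 6.82 and 7.07 in deleted cells (-0.73 ± 0.17). Tcstv3 was at -0.66 ± 0.15, Zscan4c at -0.69 ± 0.17 and Tmem92 at -0.72 ± 0.14. Tmem92 was detected on 3 wild type and 0 deleted arrays, and was at least 1.25-fold lower when set against the detection floor. Tcstv1 and Tcstv3 are close relatives on the array. Between 2 and 4 of the 4 passed when 1 array was left out, and 0 under median scaling. Of 8 primitive streak genes, Fgf8 and Lefty1 fell, and Eomes was at -0.28; with the block 4 fell and 1 rose.

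**Figure D3:**
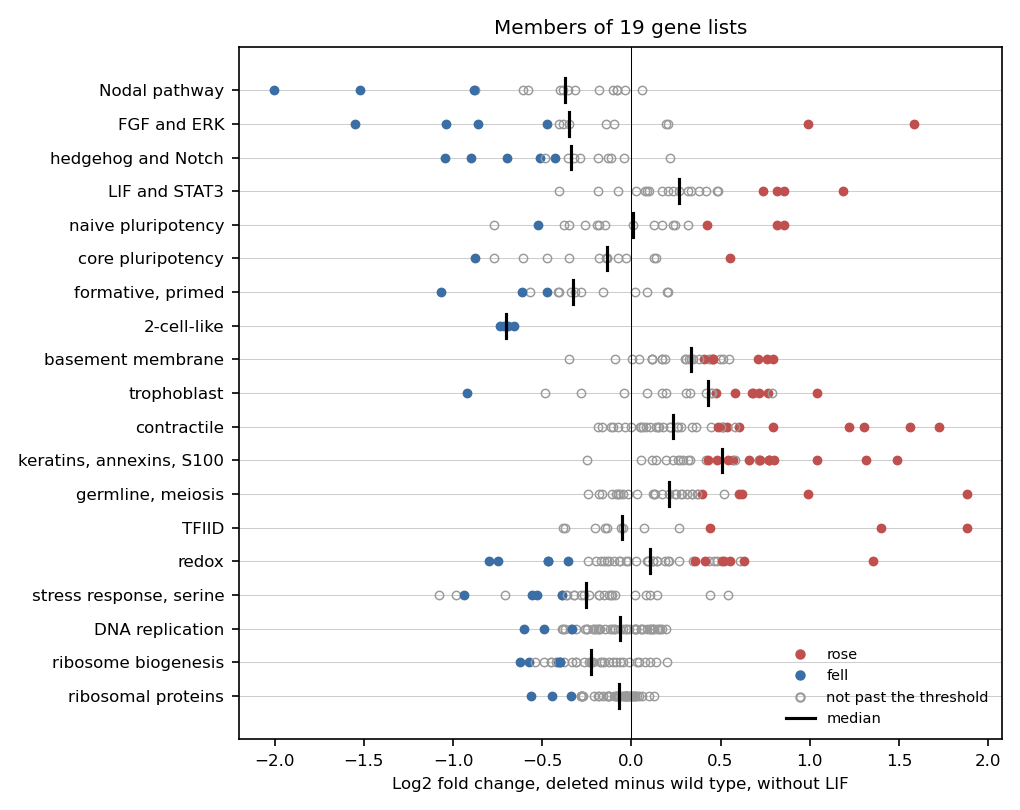
Log2 fold change (deleted minus wild type, without LIF) of every tested member of 19 gene lists. Filled points passed the adjusted p of 0.05, open points did not, and the black bar is the list's median; the 4 genes of the 2-cell-like list lie together near -0.71, while keratins, annexins and S100 genes have 13 filled points to the right of 0 and none to the left.

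Of 36 contractile genes tested, 9 rose and none fell (median 0.24; 4 to 9 rose when 1 array was left out and 5 under median scaling), 4 of them by at least 2-fold. Mylpf, the regulatory light chain of fast skeletal muscle, read 8.60, 8.65 and 8.69 in wild type and 9.98, 10.24 and 10.89 in deleted cells (3.3-fold, 1.72 ± 0.18, adjusted p = 0.000132), and a second probe passed at 1.76. Myl2, the ventricular light chain, read 5.99, 6.84 and 6.28 in wild type and 8.67, 7.62 and 7.50 in deleted cells (1.56 ± 0.28, adjusted p = 0.00477). It was detected on 1 wild type and all 3 deleted arrays, and deleted array 1 stood above the other deleted arrays. Acta1, skeletal actin, read 11.87, 11.09 and 11.06 in wild type and 13.01, 12.08 and 12.84 in deleted cells (1.31 ± 0.29, adjusted p = 0.0125). Myl4, the atrial light chain, read 8.68, 7.71 and 7.72 in wild type and 9.66, 8.91 and 9.20 in deleted cells (1.22 ± 0.32, adjusted p = 0.0291). Array 1 was the highest of its group for both. Without wild type array 3 the adjusted p was 0.0629 for Acta1 and 0.117 for Myl4.

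Csrp1, a LIM protein of actin bundles (0.79 ± 0.16, adjusted p = 0.00819), cytoplasmic actin Actb (0.60 ± 0.10, 0.00307), Tagln2 (0.48 ± 0.11, 0.0132), the alpha-actinin gene Actn2 (0.51 ± 0.15, 0.042) and Tnnt3, fast troponin T (0.53 ± 0.14, 0.025), rose too. Tnnt3 was detected on 0 wild type arrays and 1 deleted array, so its size has no measured bound. Of the 4 further Actb probes, 1 passed at 0.45, 1 was at 0.17 and 2 dimmer ones were at -0.50 and -0.56 without passing. Smooth muscle actin Acta2 (0.05), cardiac actin Actc1 (0.34) and the non-muscle light chain gene Myl6 (0.10) did not pass. Myod1, Myog, Myf5, Myf6, Ckm and Nkx2-5, markers of muscle cells, were not detected, and Des, the 1 of 7 that was, had overlapping linear intensities of 141.9 to 229.9 on wild type and 132.3 to 223.2 on deleted arrays.

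The list of keratins, annexins, S100 proteins and galectins had the highest share of rises. Of 28 tested, 13 rose and none fell (median 0.51; 6 to 12 rose when 1 array was left out and 5 under median scaling). S100a6, a calcium-binding protein, read 8.86, 8.98 and 9.01 in wild type and 10.04, 10.41 and 10.87 in deleted cells (2.81-fold, 1.49 ± 0.18, adjusted p = 0.000342). Lgals3, galectin 3, read 9.31, 9.40 and 9.33 in wild type and 10.34, 10.45 and 11.19 in deleted cells (1.31 ± 0.21, adjusted p = 0.00229). For both, deleted array 3 was the highest of the 6. The simple epithelial keratin gene Krt19 read 8.59, 8.68 and 8.71 in wild type and 9.51, 9.67 and 9.92 in deleted cells (1.04 ± 0.15, adjusted p = 0.00121). Krt17 (0.80 ± 0.23), Krt7 (0.72 ± 0.19), Lgals1 (0.77 ± 0.18), the phospholipid-binding annexins Anxa5 (0.77 ± 0.14) and Anxa6 (0.72 ± 0.12), S100a11 (0.66 ± 0.16) and the actin-sequestering thymosin Tmsb4x (0.54 ± 0.14) were also among the 13. So was Anxa1, detected on 0 wild type and 3 deleted arrays and at least 1.24-fold higher against the detection floor (adjusted p = 0.0418). Krt8 (0.33) and Krt18 (0.19), the keratin pair of early epithelia, did not pass, and S100a16 was at -0.25. Summed linear intensities of the 4 detected fibroblast markers overlapped, at 486.7 to 775.7 on wild type and 718.5 to 1014 on deleted arrays, with 0 of 4 past the threshold; their part in these rises was not tested.

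Of 27 basement membrane and collagen-processing genes tested, 6 rose and none fell (median 0.34; 14 rose and 1 fell with the block, 2 to 5 rose when 1 array was left out and 2 under median scaling). Col4a2, a chain of collagen IV, read 8.27, 7.97 and 8.24 in wild type and 8.82, 8.90 and 9.14 in deleted cells (0.79 ± 0.13, adjusted p = 0.00223). Nid2, which links laminin to collagen IV, read 10.53, 10.70 and 10.74 in wild type and 11.36, 11.53 and 11.21 in deleted cells (0.71 ± 0.12, adjusted p = 0.00381). Both had groups without overlap and passed whichever array was left out. The laminin genes Lamb3 (0.76 ± 0.19) and Lama1 (0.46 ± 0.10), the collagen gene Col18a1 (0.41 ± 0.11) and the lysyl hydroxylase gene Plod1 (0.46 ± 0.13) rose, and passed in 2, 4, 0 and 1 of those 6 fits. Col4a1 was at 0.44 (adjusted p = 0.0781, and 0.0391 with the block). Lamb1 (0.12) and Fn1 (0.12) did not pass. Of 15 primitive and visceral endoderm genes, which share Col4a2 and Lama1 with that list, 3 rose (9 with the block), the one not shared being Amn, an endocytic receptor subunit (0.85 ± 0.21, adjusted p = 0.0234).

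Of 20 trophoblast genes tested, 7 rose and 1 fell (median 0.43; 3 to 8 rose when 1 array was left out and 4 under median scaling; 2 fell with the block). The transcription factor genes Tfap2c (0.68 ± 0.13, adjusted p = 0.00627) and Gata2 (0.58 ± 0.15, 0.0234) and the X-linked homeobox gene Rhox6 (0.47 ± 0.13, 0.0336) rose beside Krt19, Krt7, Bmp8b and Wnt7b. Igfbp3, a binding protein of insulin-like growth factors, fell (-0.92 ± 0.22, 0.0186). Cdx2, Elf5 and Hand1, defining factors of trophoblast, were not detected. Of 31 epithelial adhesion genes, the hemidesmosome integrin gene Itgb4 (0.78 ± 0.12, adjusted p = 0.00213) and the catenin gene Ctnna1 (0.42 ± 0.12, 0.0444) rose, and P-cadherin, Cdh3 (-0.38 ± 0.11), and the claudin gene Cldn3 (-0.39 ± 0.12) fell. With the block 5 rose and 4 fell. Cdh3 passed in none and Cldn3 and Ctnna1 in 1 of the 6 fits that left out 1 array.

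The Hippo pathway genes Yap1, a transcriptional coactivator, and Tead2, its DNA-binding partner, fell by 0.64 ± 0.11 (adjusted p = 0.00408) and 0.39 ± 0.11 (adjusted p = 0.0367). Ccn2, a secreted target of YAP, read 11.06, 11.36 and 11.31 in wild type and 10.18, 10.51 and 10.50 in deleted cells (-0.84 ± 0.16, adjusted p = 0.00607). These were the 3 of 14 genes of the YAP list that fell, and none rose. With the block 4 rose and 4 fell, and under median scaling 0 fell. The list as a whole did not lie lower: its median was 0.22, and 9 of the 14 genes were above 0. Ccn1, another target, was at -0.62 ± 0.21 (adjusted p = 0.0733, and 0.0036 with the block). Amotl2 was at -0.08.

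Of 29 genes tested of the complexes that hold HDAC1 and HDAC2, the Sin3 subunit gene Sap30l rose (0.56 ± 0.16, adjusted p = 0.043). The methyl-CpG binding gene Mbd2 of NuRD fell (-0.71 ± 0.21, 0.0457), and 2 fell with the block. Sap30l passed in 2 and Mbd2 in 1 of the 6 fits that left out 1 array. Among 20 acetyltransferase genes, Hat1 rose (0.47 ± 0.09, 0.00731) and Kat5 fell (-0.58 ± 0.11, 0.0063); both passed whichever array was left out. Among 26 Polycomb genes, Mtf2 read 10.29, 10.93 and 10.58 in wild type and 11.11, 11.61 and 11.72 in deleted cells (0.88 ± 0.21, adjusted p = 0.017), and its 2 further probes passed at 0.83 and 0.86. Pcgf5 rose (0.46 ± 0.13) and Bcor, on the X chromosome, fell (-0.69 ± 0.12); with the block 4 rose and 2 fell. The PRC2 core genes Ezh2 (0.36) and Eed (0.47) did not pass. Among 12 DNA methylation genes, Dnmt3l, the cofactor of the de novo methyltransferases, read 12.41, 12.12 and 12.07 in wild type and 13.39, 13.25 and 13.16 in deleted cells (2.1-fold, 1.07 ± 0.14, adjusted p = 0.000597), and Mbd2 was the 1 that fell (2 with the block). Dnmt1 (0.01), Dnmt3b (-0.31), Uhrf1 (0.23) and Tet1 (-0.47) did not pass.

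Of 31 imprinted genes tested, 2 rose and 2 fell. Igf2, a paternally expressed growth factor, read 11.02, 10.78 and 10.82 in wild type and 12.05, 12.18 and 12.31 in deleted cells (2.47-fold, 1.31 ± 0.13, adjusted p = 9e-05). Peg3, also paternally expressed, rose by 0.64 ± 0.15. The maternally expressed Grb10 read 10.17, 10.10 and 10.19 in wild type and 9.12, 8.78 and 8.75 in deleted cells, and Phlda2, also maternally expressed, read 10.93, 10.57 and 10.62 in wild type and 9.51, 9.25 and 9.57 in deleted cells. None of these 4 genes had overlapping groups. Igf2r (0.32) and Cdkn1c (-0.27), both maternally expressed, did not pass.

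Of 4 metallothioneins tested, which are small metal-binding proteins, 2 rose. Mt1 read 13.58, 13.54 and 13.51 in wild type and 14.57, 14.85 and 14.60 in deleted cells (2.19-fold, 1.13 ± 0.12, adjusted p = 0.000115), and Mt2 read 7.91, 7.47 and 7.51 in wild type and 8.58, 8.77 and 8.35 in deleted cells (0.94 ± 0.16, adjusted p = 0.00395). Both passed whichever array was left out; they are close paralogs. Mt3 (0.25) and Mt4 (0.09) did not pass. The zinc importer gene Slc39a4 rose (0.58 ± 0.13) and Slc39a10 fell (-0.50 ± 0.14). Of 8 genes known to rise with HDAC inhibitors, 3 rose: Mt1, Mt2 and Crabp2 (5 with the block). Cdkn1a, the cell cycle inhibitor often cited among such genes, was at 0.53 ± 0.17 (adjusted p = 0.0626, and 0.00152 with the block).

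Of 40 redox genes tested, 7 rose and 5 fell (2 to 8 and 1 to 4 when 1 array was left out; 11 rose with the block). Gpx2, a glutathione peroxidase of gut epithelium, read 7.27, 6.56 and 6.89 in wild type and 8.43, 8.32 and 8.02 in deleted cells (2.55-fold, 1.35 ± 0.19, adjusted p = 0.00101). The superoxide dismutase genes Sod2 (0.52 ± 0.10) and Sod1 (0.36 ± 0.10) rose, as did Nqo1, a quinone reductase (0.51 ± 0.11). Cbr3, a carbonyl reductase, fell (-0.80 ± 0.14, adjusted p = 0.00381), and Gstt2 (-0.75 ± 0.19), Gclm (-0.47 ± 0.12), Gpx8 (-0.47 ± 0.14) and Txnrd2 (-0.36 ± 0.10) fell too. Of 36 lysosomal genes, 4 rose and 2 fell (6 rose with the block). Beside Laptm5, the protease gene Ctsb (0.71 ± 0.14) and the proton pump subunit genes Atp6v1a (0.63 ± 0.17) and Atp6v0d1 (0.50 ± 0.13) rose. Ctsc fell (-0.65 ± 0.12). For Npc1, which exports cholesterol from lysosomes, the probe used fell (-0.67 ± 0.17) and another fell at -0.41, but the remaining one passed in the opposite direction at 0.40. Of 8 carbonic anhydrase genes, Car4 (0.61 ± 0.14) and Car9 (0.54 ± 0.13) rose, and Car14 and Car11 (-0.51 ± 0.13) fell; 4 fell with the block. Car9 was detected on 0 wild type and 2 deleted arrays, so the size of its rise has no measured bound.

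Amino acid transporter genes split evenly, 3 of 18 rising and 3 falling (6 fell with the block). The creatine transporter gene Slc6a8, on the X chromosome, read 9.68, 9.53 and 9.57 in wild type and 10.75, 10.74 and 11.00 in deleted cells (2.35-fold, 1.24 ± 0.11, adjusted p = 1.98e-05). The glutamine transporter gene Slc38a5 (0.69 ± 0.16) rose, as did Slc7a8. Slc7a8 was detected on 0 wild type and 2 deleted arrays, so the size of its rise has no measured bound. In the other direction, the glycine transporter gene Slc6a9 (-0.63 ± 0.17), Slc1a3 (-0.59 ± 0.16) and Slc43a1 (-0.51 ± 0.11) fell. Of 28 genes of the integrated stress response and serine synthesis, 4 fell and none rose (median -0.25; 13 fell with the block, 1 to 7 when 1 array was left out and 0 under median scaling). They were Vldlr, a lipoprotein receptor (-0.94 ± 0.14, adjusted p = 0.00175), Shmt2, the mitochondrial serine hydroxymethyltransferase (-0.55 ± 0.14), Ppp1r15a (-0.53 ± 0.12) and Cebpb (-0.39 ± 0.11). Slc7a3, an arginine transporter, was at -1.08 ± 0.33 (adjusted p = 0.0538, and 0.000618 with the block). Of 26 sterol and lipid synthesis genes, Mid1ip1 and Fdps, a farnesyl diphosphate synthase (-0.64 ± 0.19, adjusted p = 0.0442), fell; with the block 8 fell and 1 rose.

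Of 28 genes of G1 cyclins and their inhibitors, 2 rose and 2 fell (5 rose with the block). Cyclin D2, Ccnd2, read 8.85, 8.77 and 8.82 in wild type and 7.89, 7.38 and 7.83 in deleted cells (-1.11 ± 0.20, adjusted p = 0.00474), and a second probe passed at -1.09. Cyclin D3, Ccnd3, rose by 0.63 ± 0.14 (adjusted p = 0.0149), but a dim second probe was at -0.23. Cyclin D1, Ccnd1, was at -0.40 ± 0.18 (adjusted p = 0.18, and 0.0379 with the block). The retinoblastoma gene Rb1 rose (0.75 ± 0.11) and Cdk4 fell (-0.46 ± 0.09). Of 45 DNA replication genes, Pold2, Mcm3 and Rrm1 fell (-0.60, -0.49 and -0.33; 6 fell with the block, and 0 to 2 when 1 array was left out), and of 33 mitosis genes Prc1 rose (0.35; 2 rose and 1 fell with the block). Of 33 p53 and apoptosis genes, Gadd45a, a stress response gene, rose (0.82 ± 0.16) and Bcl2 fell (-0.41 ± 0.12); 7 rose and 2 fell with the block. Bcl2 was detected on 3 wild type and 0 deleted arrays and was at least 1.19-fold lower against the detection floor.

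Of 35 ribosome biogenesis genes, 5 fell and none rose (median -0.23; 12 fell with the block, 1 to 5 when 1 array was left out and 0 under median scaling). Polr1a, the largest subunit of RNA polymerase I (-0.57 ± 0.09, adjusted p = 0.00299), and the box C/D factor gene Nop56 (-0.62 ± 0.14, 0.0119) were the 2 with the lowest fold changes, and Wdr43, Mrto4 and Rrp1b lay at -0.41, -0.40 and -0.40. Nucleolin, Ncl (-0.38), and nucleophosmin, Npm1 (-0.05), did not pass. Of 50 ribosomal protein genes, Rpl13a, Rpl30 and Rps7 fell (-0.57, -0.44 and -0.34; 5 fell with the block, and 0 to 3 when 1 array was left out). Of 65 nuclear genes of oxidative phosphorylation, Ndufa1 and Ndufb6 rose (both 0.36; 5 rose with the block), and of 28 glycolysis and hypoxia genes Eno2 (0.63), Car9 and Hk1 (0.45) rose (7 rose and 2 fell with the block). Of 47 proteasome and chaperone genes, the small heat shock genes Cryab (0.88 ± 0.18) and Hspb1 (0.68 ± 0.12) and the proteasome gene Psmd13 (0.43 ± 0.11) rose, and Dnajb9 fell (-0.39 ± 0.11; 3 fell with the block).

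Of 16 antigen presentation genes, 3 rose and 1 fell. Cd74, the invariant chain of MHC class II, read 7.21, 6.88 and 7.22 in wild type and 8.08, 7.85 and 8.04 in deleted cells (0.88 ± 0.14, adjusted p = 0.0021). B2m, the light chain of MHC class I (0.63 ± 0.10, adjusted p = 0.00265), and the immunoproteasome gene Psmb9 (0.71 ± 0.11, 0.00175) rose, and Tapbp fell (-0.42 ± 0.12, 0.0429). H2-K1 (0.17) and H2-D1 (0.16) did not pass. Of 24 interferon-stimulated genes, Gbp2, a guanylate-binding protein (1.00 ± 0.24, adjusted p = 0.0182), and Psmb9 rose (5 with the block). Of 34 cytokine and growth factor genes, 7 rose and 5 fell. Igf2, the EGF receptor ligand gene Hbegf (0.99 ± 0.21), the chemokine gene Cxcl16 (0.95 ± 0.19), Pdgfa (0.63 ± 0.12), Igfbp4 (0.61 ± 0.14) and Tgfb1 (0.39 ± 0.11) were among those that rose. Cxcl12, Igfbp3, the heparin-binding factor gene Mdk (-0.42 ± 0.09) and the receptor gene Erbb2 (-0.42 ± 0.12) fell. So did Ptn, a relative of Mdk detected on 3 wild type and 0 deleted arrays and at least 1.24-fold lower against the detection floor; it passed in 0 of the 6 fits that left out 1 array.

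Of 25 G protein and receptor genes tested, Gng13 and Rgs17, a regulator of G protein signalling (0.81 ± 0.15, adjusted p = 0.00627), rose (4 with the block). Of 18 neuronal genes known as targets of the repressor REST, Syt5, a synaptotagmin (0.43 ± 0.12, adjusted p = 0.0309), rose and Celsr3, an adhesion receptor (-0.44 ± 0.13, 0.0402), fell; 6 rose with the block. Of 9 neuroectoderm genes, Map2, a microtubule-binding protein of neurons (0.43 ± 0.11, 0.0221), rose and Sox11 fell (2 rose and 3 fell with the block). Of 10 Hox and patterning genes, Meis2 was the 1 that fell, and none rose (2 fell with the block).

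To see which of these differences belonged to cells without LIF, they were set beside the same contrast in the 6 arrays with LIF, where 955 genes (10%) passed. Of the 999 genes, 425 also passed with LIF (42.5% of the 999 and 44.5% of the 955), 421 in the same direction and 4 in opposite directions, and 921 had the same sign. Over all genes tested 70.8% had the same sign in both cultures. The 2 comparisons share no array, but they are not independent. Both came from a single fit with a shared estimate of each gene's spread, and most same-numbered arrays correlated across the cultures. The median size of the log2 fold change over the 999 genes was 0.57 without LIF, where they were selected, and 0.38 with it. The difference between the 2 deletion effects was tested itself, and 5 genes passed (0.0525%; 722 at an unadjusted p under 0.05). Large changes without LIF did not always pass this test: Meis2 was at -1.61 without and -0.16 with LIF (adjusted p = 0.0675 for the difference), Fgf8 at -1.55 and 0.27 (0.246), and Tfcp2l1 at 0.82 and -0.06 (0.0664).

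The 5 genes were Laptm5, Tgm1, Car14, Ccn2 and Npw. Laptm5 read 11.18, 11.15 and 11.23 in wild type and 10.73, 10.80 and 10.77 in deleted cells with LIF, a fall of 0.42 ± 0.12, against its rise of 1.52 without LIF; the difference was 1.94 ± 0.17 (adjusted p = 0.000217). Tgm1 read 8.45, 8.24 and 8.31 in wild type and 8.57, 8.44 and 8.91 in deleted cells with LIF (0.30 ± 0.16), a difference between cultures of 1.46 ± 0.23 (adjusted p = 0.0452). Its wild type arrays were higher with LIF than without. Car14 read 6.72, 6.74 and 6.65 in wild type and 6.40, 6.52 and 6.35 in deleted cells with LIF (-0.28 ± 0.11), a difference of -1.44 ± 0.15 (adjusted p = 0.000796). The lowest detected signals of these arrays with LIF were 6.51 to 6.61 in wild type and 6.44 to 6.5 in deleted cells. Car14 thus lay near the detection floor with LIF in both genotypes, where a further fall could hardly be measured. Ccn2 read 9.11, 9.14 and 9.64 in wild type and 9.63, 9.97 and 9.98 in deleted cells with LIF (0.57 ± 0.16), so that it rose there and fell without LIF, a difference of -1.41 ± 0.23 (adjusted p = 0.0452). Npw, which encodes a neuropeptide, read 6.91, 6.88 and 6.87 in wild type and 6.89, 6.79 and 6.85 in deleted cells without LIF (-0.04 ± 0.11) and 6.24, 6.64 and 6.34 in wild type and 7.34, 7.55 and 7.34 in deleted cells with it (1.00 ± 0.11), a difference of -1.05 ± 0.16 (adjusted p = 0.0452). With LIF it was detected on 1 of 3 wild type arrays, so its wild type level there, and with it the size of the difference, lies close to background. With single arrays without LIF left out, the count was 9 for wild type array 1 and 4 for deleted array 1. It was 2 for wild type array 2 or 3 or deleted array 2 or 3. No array with LIF was left out, so how far these differences rest on single arrays with LIF was not tested. With the naming of the non-normalized table every one of these differences would change sign.

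**Figure D4:**
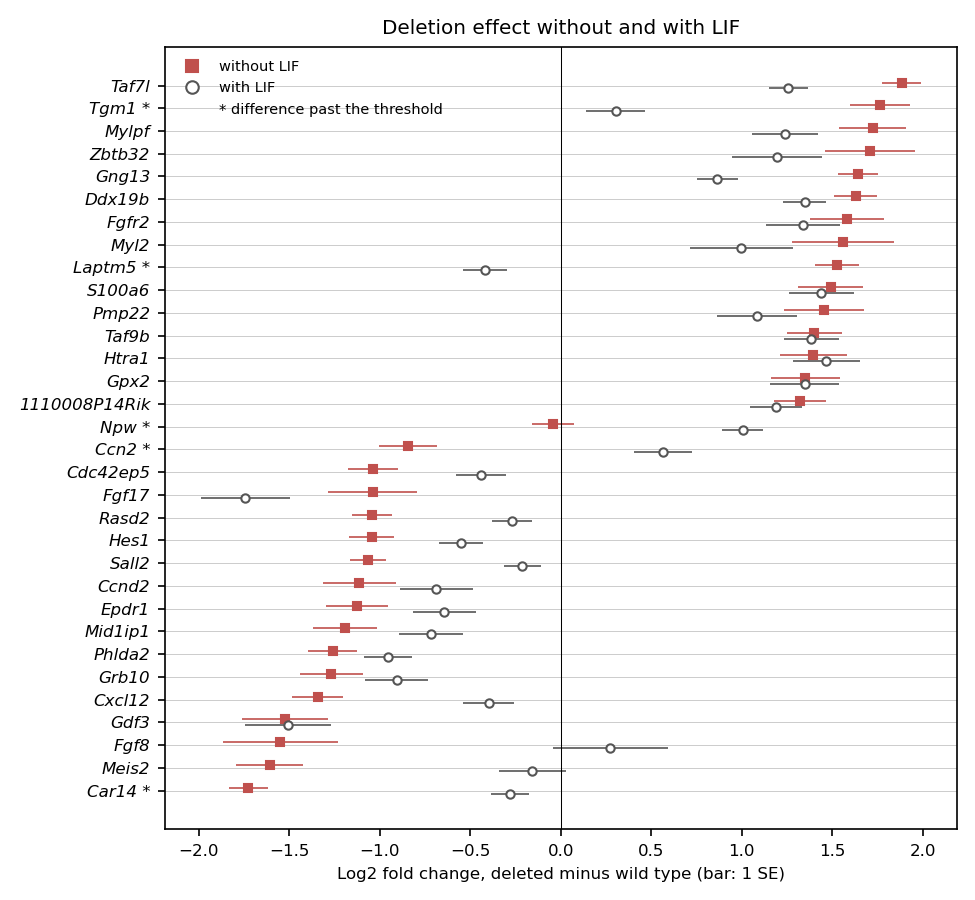
Log2 fold change between deleted and wild type cells without LIF (red squares) and with LIF (open circles), with bars of 1 standard error, for the 30 genes of largest change without LIF, Ccn2 and Npw. Stars mark the 5 genes whose difference between cultures passed the adjusted p of 0.05; Laptm5 and Ccn2 lie on opposite sides of 0 in the 2 cultures.

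Further probes bore on how far single values can be read. Of the 999 genes, 349 had another kept probe, 468 probes in all. Of these, 437 had the sign of the probe used and 157 passed in the same direction, while 2 passed in the opposite one. Of 188 changed genes followed through every alternative, 82 passed whichever of the 6 arrays was left out. Sirt2, Sod1, Gpx8, Bcl2, Tapbp, Dnajb9, Ndufa1 and Rrm1 were among those that passed in 0 of these 6 fits. Mbd2, Pcgf5, Dppa3, Sox11, Krt17 and Fdps were among those that passed in 1.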

How the data were processed

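Total RNA from 12 samples was measured on Illumina mouse arrays of 45281 probes, 3 arrays in each of 4 groups. GenomeStudio made the deposited intensities, per the submitters' processing notes; its settings are not given in the sources used here. The deposited non-normalized table gave intensities and detection p-values, per the file headers, and its columns were matched to samples by rank order.

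The deposited processed intensities had a lowest value of 86.5, a highest of 35095 and a median of 125.8 or 125.9 on all 12 arrays. The non-normalized medians ran from 91.18 to 215.6. The processed values had thus been normalized between arrays already, and the quantile step here came on top of that. They were corrected by normexp (offset 50), taken to log2 and quantile normalized with limma 3.58.1 in R 4.3.3. The steps were tested on simulated data. Of 45281 probes 34885 had 1 gene symbol, 18 several and 10378 none. Probes detected (p under 0.05) on all 3 arrays of at least 1 of the 4 groups were kept (15999), and each of 9527 genes was represented by its brightest kept probe by mean. A linear model over all 12 arrays with 4 group means (8 residual degrees of freedom) was tested with moderated statistics and Benjamini-Hochberg adjustment over the 9527 genes, at 0.05. A named gene not detected on any array of a group was given a fold bound against the lowest detected signal of each array. The bound is given where it exceeded 1 and all 3 arrays of the other group detected the gene.

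The members and gene lists were chosen with earlier results of these data known. Through every alternative 287 genes were followed, which hold the genes named. Of these, 166 came from a rule: the 15 largest rises and falls without overlap between groups, up to 4 changed members of each list, the histone deacetylases, and genes whose change differed with LIF. The others were chosen after their values were seen. The main fit had no block. For the block, same-numbered arrays were taken as paired because those without LIF had deviations correlated at 0.681, 0.513 and 0.268. The pairing comes from the replicate numbers in the labels and from these values, and the labels do not say what a number marks. The block also joined same-numbered arrays across the cultures. There, wild type arrays 1, 2 and 3 correlated at 0.524, -0.044 and 0.361, and deleted arrays at 0.574, 0.343 and 0.376. Wild type array 3 with LIF correlated at 0.47 with wild type array 2 without LIF. Values with the block depend on this pairing. Alternatives were plain log2, the non-normalized table, other normalizations and filters, and single probes. Further ones were the replicate block, only the 6 arrays without LIF, and leaving out each of these 6. No array with LIF was left out.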

Additional observations from a re-analysis of the deposited data

Results flagged for a closer look

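For 5 genes the test of the difference between the deletion effects without and with LIF passed (limma, adjusted over 9527 genes). The difference, without LIF minus with LIF on the log2 scale, was 1.94 for Laptm5 (adjusted p = 0.000217), 1.46 for Tgm1 (0.0452), -1.44 for Car14 (0.0008), -1.41 for Ccn2 (0.0452) and -1.05 for Npw (0.045). All 3 deleted arrays lay above all 3 wild type arrays without LIF for Laptm5 and Tgm1, and below them for Car14 and Ccn2. The groups of Npw overlapped without LIF and were apart with it, where 1 of 3 wild type arrays detected it. With LIF the values of Car14 lay near the detection floor in both genotypes.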

How the results depend on the processing

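The count of 999 changed genes was 257 with median scaling of the non-normalized table, 595 with no detection filter (19057 genes tested), 2084 with the replicate block, 2402 with a block within each culture (chosen after seeing the data) and 541 from only the 6 arrays. It ranged from 400 to 1003 when 1 of these 6 arrays was left out. The count of 5 genes that differed between cultures was 8 with plain log2, 3 with cyclic loess and 1 with median scaling. It was 13 with the replicate block, 109 with the block within each culture and 3 with every probe tested by itself. With 1 of the 6 arrays without LIF left out it was 2 to 9, and no array with LIF was left out. The cause was not tested. The other counts stayed within 1.5 times. Of 188 changed genes followed through every alternative, 46 passed under all 16 settings, and none changed direction. In settings that kept the same values and the same probe, such as the blocks and the single-probe fit, the direction was fixed in advance. Other probes of these genes were not counted here. Genes near the detection floor have compressed fold changes, and 3 arrays per group limit the precision.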
